A study of Homo sapiens with 9 samples.

Results

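RNA sequencing libraries of BT549 cells transfected with the siRNA siWFDC21P-2 were compared with the control library that shares their gene table, siNC replicate 3. The members were chosen by the titles and by that shared table of 29104 genes, which gave 4 of the 9 libraries of the series: 3 siWFDC21P-2 libraries (replicates 1 to 3) and 1 control. The other 5 libraries use another table of 34377 genes and enter only alternative fits that are named as such. They include other expression backgrounds, from which those fits also take their spread. BT549 is an established human breast cancer line that lacks hormone receptors and HER2 amplification and has mesenchymal features, and the labels give the genotype as WT for the control and as a WFDC21P knockdown for the others. Cells in both groups received 5 µl of a 10 µM siRNA stock 24 h after seeding and were harvested 48 h later. The question was which genes differ when the transcript of WFDC21P is targeted. The labels do not say whether the libraries come from separate cultures, so the p-values measure the spread between these samples, which may be technical. With 1 control library, the spread comes from the knockdown libraries alone, and an exact permutation test of 1 library against 3 has 4 arrangements and cannot go below p = 0.25.

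WFDC21P is a transcribed pseudogene of the WAP four-disulfide core family, also known as lnc-DC, a long noncoding RNA described in dendritic cells as a partner of the transcription factor STAT3. A small interfering RNA is a short RNA duplex whose guide strand directs an Argonaute protein to a matching transcript, which is then cut. Cells carry sensors for double-stranded RNA, such as RIGI, whose activation leads to type I interferon and to interferon-stimulated genes. Misfolded proteins and a shortage of amino acids are sensed by other programmes, in which the factors HSF1, ATF6, XBP1 and ATF4 switch on chaperones, degradation enzymes, amino acid transporters and biosynthetic enzymes.

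The values are FPKM, fragments per kilobase of exon scaled to the counted reads of the library, as calculated by the authors. The depth read from the steps of the low values was 16.3 M reads in the control and 17.4, 16.7 and 17.2 M in knockdown replicates 1, 2 and 3. A gene is called over 2-fold apart when its values differ by more than 1 on the log2(FPKM + 1) scale. Replicate 1 stood apart from the other knockdown libraries. It lay next to the control, with a Pearson r of 0.981 over 12308 genes on the log2(FPKM + 1) scale and 166 genes over 2-fold apart. Replicates 2 and 3 had an r of 0.982 with each other and 163 genes over 2-fold apart. Across these pairs the distance was larger, with 1313 genes over 2-fold apart between the control and replicate 2 and 1114 between replicates 1 and 3. Results are therefore given per library, and counts of calls also without replicate 1. Where 4 values of a gene follow each other below, the order is the control against knockdown replicates 1, 2 and 3. The column names of the 3 knockdown libraries end in different numbers after "si", whose meaning the labels do not give.

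The target was measured first. WFDC21P (ENSG00000261040; hg38, chromosome 17, 60083566 to 60091885, minus strand; transcribed unitary pseudogene) was at 6.87 FPKM in the control and at 4.13, 3.32 and 2.12 FPKM in knockdown replicates 1, 2 and 3. The control was above all 3 knockdown libraries. These values rest on 123, 79, 61 and 40 reads, and their exact Poisson intervals at 95% were 5.71 to 8.19 FPKM in the control and 3.27 to 5.15, 2.54 to 4.26 and 1.51 to 2.88 in replicates 1 to 3. The intervals cover counting error only, and that of the control did not overlap any of the others. On the log2(FPKM + 1) scale the fold change was -0.94 ± 0.34 (SE, limma, adjusted p = 0.832), which did not pass the threshold. Without replicate 1 it was -1.10 in limma, adjusted p = 0.0573. The gene overlaps the noncoding gene HEATR6-DT on the plus strand, whose values were 0.527 FPKM for the control and 0.493, 0.769 and 0.250 FPKM for replicates 1 to 3. The labels do not state strandedness, so reads from the overlap cannot be told apart.

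Over the whole table, 12308 of 29104 genes averaged 1 FPKM or more across the 4 libraries and were tested with limma. None of them (0%) passed an adjusted p of 0.05, and the smallest adjusted p was 0.832. At an unadjusted p below 0.05 there were 174 higher genes (1.41%) and 163 lower genes (1.32%). With reads recovered from the FPKM values, limma-voom called 0 genes and had 277 at an unadjusted p below 0.05. The control lay below all 3 knockdown libraries in 3443 genes (28%) and above all 3 in 3070 (24.9%), which are the backgrounds for every such count below.

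The knockdown libraries were unequally far from the control. Replicate 1 held 73 genes over 2-fold higher (0.593%) and 93 over 2-fold lower (0.756%). Replicate 2 held 717 higher (5.83%) and 596 lower (4.84%), and replicate 3 held 676 higher (5.49%) and 522 lower (4.24%). Without replicate 1, limma called 1140 genes higher (9.26%) and 711 lower (5.78%). These 1851 genes were chosen by their difference in replicates 2 and 3, which fixes its size there, at a median of 1.04 in the direction of the call. Replicate 1, which is set against the same control library, had a median of 0.14 in that direction. The fit without replicate 1 drops the knockdown library nearest to the control. Its spread comes from replicates 2 and 3 alone, which lay close together. Its calls and adjusted p-values, here and below, therefore describe those libraries and not the 3 knockdown libraries.

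**Figure D1:**
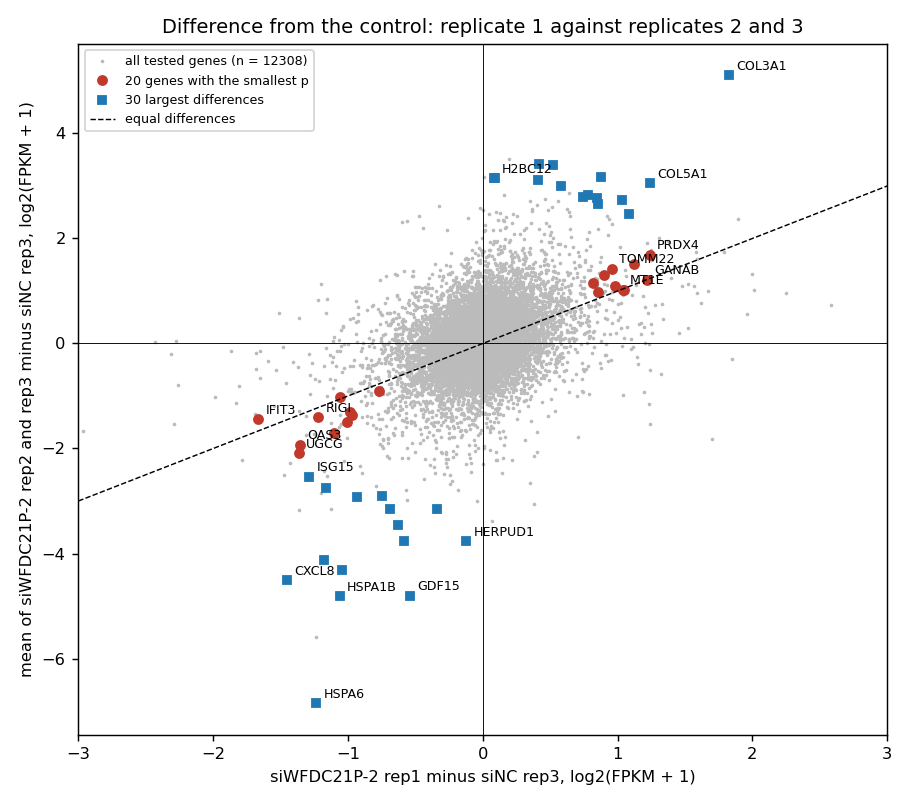
Difference from siNC replicate 3 on the log2(FPKM + 1) scale in siWFDC21P-2 replicate 1 (horizontal axis) and in the mean of replicates 2 and 3 (vertical axis, other scale), for 12308 tested genes (grey), the 20 with the smallest p (red) and the 30 largest differences (blue). Red points such as GANAB and RIGI lie near the dashed line of equal differences, whereas HSPA6, HERPUD1 and COL3A1 lie far from it, with replicate 1 closer to the control.

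The plot of replicate 1 against replicates 2 and 3 shows genes that differed alike in all 3 knockdown libraries and genes that differed mainly in replicates 2 and 3. None passed the adjusted threshold, so 10 higher and 9 lower genes among those with the smallest unadjusted p are described by value.

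GANAB, the catalytic subunit of glucosidase II that trims glycans on newly made proteins in the endoplasmic reticulum, was at 82 FPKM in the control and at 192, 201 and 182 FPKM in knockdown replicates 1, 2 and 3 (hg38, chromosome 11, 62624826 to 62646726, minus strand). The knockdown mean was 192 ± 9.33 FPKM (SD, n = 3), and all 3 libraries were over 2-fold above the control. The log2 fold change was 1.22 ± 0.24 (SE, limma, adjusted p = 0.832). PRDX4, a peroxiredoxin of the endoplasmic reticulum, was at 40.8 FPKM in the control and at 97.7, 123 and 145 FPKM in knockdown replicates 1, 2 and 3, and DENND2A, an exchange factor for Rab GTPases, at 1.68 FPKM against 4.84, 6.34 and 6.95 FPKM. Replicate 1 was the lowest of the knockdown libraries for both, and still above the control.

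TOMM22, a receptor of the mitochondrial outer membrane import complex, was at 18.6 FPKM in the control and at 37.1, 53.1 and 50.2 FPKM in knockdown replicates 1, 2 and 3. THOC7, a subunit of the THO complex that couples transcription to mRNA export, was at 15.9 FPKM against 32.4, 37.9 and 32.6 FPKM, and BICD2, a dynein adaptor, at 7.63 FPKM against 16.8, 15.4 and 17.8 FPKM. For the last 2 genes, the knockdown libraries lay within a narrow range about 2-fold above the control. The metallothionein MT1E, a zinc and copper binding protein, was at 21.2 FPKM in the control and at 44.5, 45.8 and 42.3 FPKM in knockdown replicates 1, 2 and 3, with a log2 fold change of 1.03 ± 0.23 (SE, limma, adjusted p = 0.832). TM4SF1, a tetraspanin-like surface protein, was at 89.5 FPKM against 162, 179 and 175 FPKM. FADS2, a fatty acid desaturase, was at 13.3 FPKM against 25.6, 37.8 and 31.4 FPKM. C9orf78, a spliceosome-associated protein, was at 4.91 FPKM against 9.44, 11.6 and 12.7 FPKM. All 10 of these genes had the control below the 3 knockdown libraries, which the choice by p favours. FADS2 overlaps FEN1 on the same strand, and C9orf78 and DENND2A overlap USP20 and ADCK2 on the other strand, so their reads may be shared.

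RIGI, a cytosolic sensor of double-stranded RNA, had the smallest p of the named genes. It was at 19.3 FPKM in the control and at 7.7, 6.69 and 6.62 FPKM in knockdown replicates 1, 2 and 3 (hg38, chromosome 9, 32455705 to 32526324, minus strand), a knockdown mean of 7.0 ± 0.606 FPKM (SD, n = 3). The 3 libraries were at 39.96, 34.7 and 34.3% of the control, and the log2 fold change was -1.34 ± 0.22 (SE, limma, adjusted p = 0.832). OAS3, which makes the second messenger that activates RNase L, was at 6.78 FPKM in the control and at 2.04, 1.06 and 1.04 FPKM in knockdown replicates 1, 2 and 3 (log2 fold change -1.73 ± 0.33 SE in limma, adjusted p = 0.832). IFIT3, an interferon-induced binding partner of antiviral RNA-binding proteins, was at 11.9 FPKM against 3.07, 4.69 and 2.95 FPKM, with replicate 2 the knockdown library nearest to the control. CGAS, the sensor of cytosolic DNA, was at 15.7 FPKM against 7.02, 6.3 and 8.33 FPKM. These 4 innate immunity genes had the control above all 3 knockdown libraries, which the choice by p favours. IFIT3 overlaps LIPA and CGAS overlaps DDX43, both on the other strand.

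UGCG, the enzyme that makes glucosylceramide, was at 113 FPKM in the control and at 43.4, 30.7 and 21.7 FPKM in knockdown replicates 1, 2 and 3, with a log2 fold change of -1.85 ± 0.42 (SE, limma, adjusted p = 0.832). PSAT1, the aminotransferase of serine synthesis, was at 209 FPKM against 105, 76.2 and 92.1 FPKM. CDKN1A, the gene of the cell cycle inhibitor p21, was at 23.8 FPKM against 11.7, 7.52 and 10.1 FPKM. Replicate 1 was the highest knockdown library for all 3 genes, at 38.3% of the control for UGCG, 50.3% for PSAT1 and 49% for CDKN1A. BHLHA15, a transcription factor of secretory cells, was at 3.77 FPKM against 1.37, 0.524 and 0.875 FPKM, and the cytokine CSF2 at 2.88 FPKM against 0.804, 0.228 and 0.148 FPKM. The last 2 rest on few reads, 49 reads against 19, 7 and 12 for BHLHA15 and 37 reads against 11, 3 and 2 for CSF2. The fit without replicate 1 shares its 3 libraries with the fit that chose these genes, so its values are given as a description. In it the log2 fold change was 1.21 (limma, adjusted p = 0.0232) for GANAB, -1.41 (limma, adjusted p = 0.0228) for RIGI and -2.09 (limma, adjusted p = 0.0244) for UGCG.

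**Figure D2:**
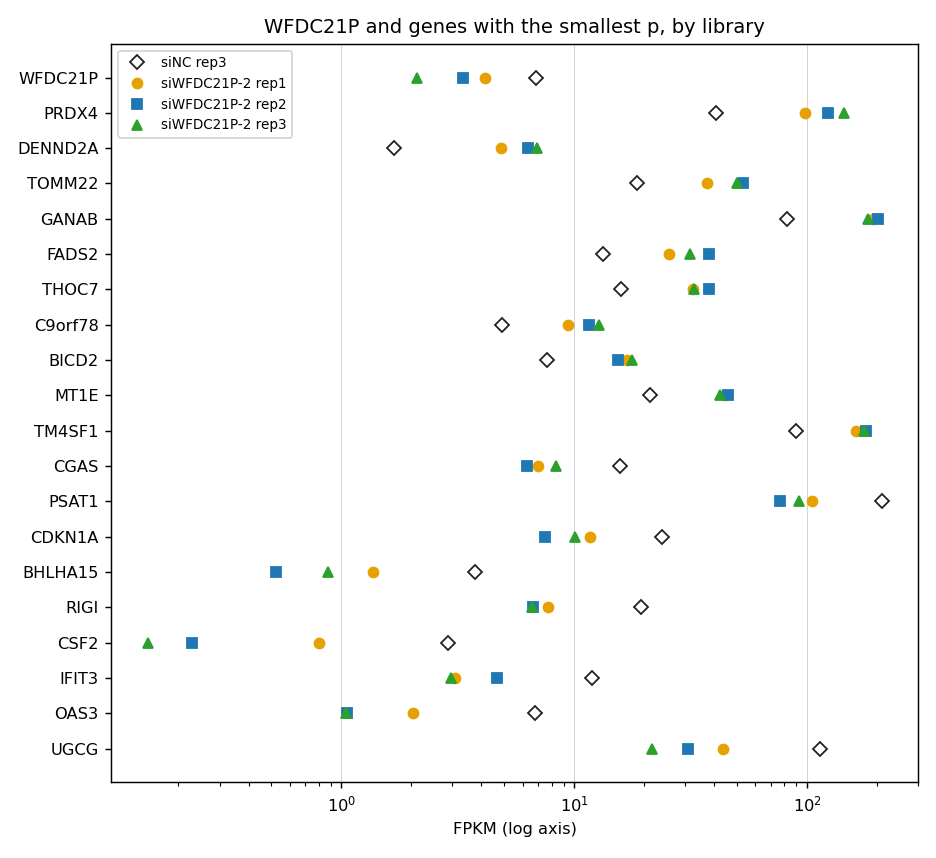
FPKM (log axis) of WFDC21P and the 10 higher and 9 lower genes described above in siNC replicate 3 (open diamonds) and siWFDC21P-2 replicates 1 to 3 (filled symbols). The open diamond lies outside the filled symbols for every gene, and the 3 knockdown libraries lie close together for GANAB, MT1E and RIGI. For all genes but WFDC21P, the choice by p favours both patterns.

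The genes with the largest fold changes were chosen after their values were seen. HSPA6, a strictly inducible HSP70, was at 118 FPKM in the control and at 49.4, 0.0252 and 0.0245 FPKM in knockdown replicates 1, 2 and 3, which is 4544 reads against 2038, 1 and 1. CXCL8, the neutrophil chemokine interleukin-8, was at 1372 FPKM in the control and at 502, 36.2 and 97.4 FPKM in knockdown replicates 1, 2 and 3. COL3A1, a fibrillar collagen, was at 5.75 FPKM in the control and at 23, 242 and 221 FPKM in knockdown replicates 1, 2 and 3. In each of these genes replicate 1 lay between the control and the other knockdown libraries. HMOX1, which degrades haem, was at 1572 FPKM against 1048, 151 and 86.8 FPKM, and GDF15, a stress-induced hormone of the TGF-beta superfamily, at 384 FPKM against 264, 14.5 and 11.2 FPKM. The growth arrest gene GAS1 was at 2.34 FPKM against 5.84, 23 and 19.8 FPKM, and CDKN2C, an inhibitor of CDK4 and CDK6, at 6.56 FPKM against 9.1, 99.7 and 63.4 FPKM. With replicate 1, the log2 fold change of COL3A1 was 4.01 ± 1.41 (SE, limma, adjusted p = 0.832), and that of HSPA6 was -4.98 ± 2.40 (SE, limma, adjusted p = 0.832). Without it they were 5.11 (limma, adjusted p = 0.00644) and -6.85 (limma, adjusted p = 0.00644).

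In all, 57 genes were over 2-fold from the control on the same side in each of the 3 libraries, 22 higher and 35 lower. Of these, 20 were annotated as short RNA genes or pseudogenes, and 8 others had no symbol. Among the lower ones stood RIGI, OAS3, OAS2, IFIT3, ISG15, IFI6, MX1, IFI44L, UGCG, CXCL8, IL1B and DUSP1, and among the higher ones GANAB, PRDX4, DENND2A, GAS1, COL3A1, COL5A1 and HTR2A. These were chosen after their values were seen.

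Gene lists put these differences in context. They were chosen with earlier results of these data known, and every member is set against the same control library. Over all 12308 tested genes the median log2 fold change was 0.03, and the medians in replicates 1, 2 and 3 were -0.01, 0.05 and 0.06. No list had a member that passed the adjusted threshold, so each is described by its median and by how many members had the control on 1 side of all 3 knockdown libraries. In bulk RNA, fewer cells of a type or cell cycle phase and less RNA per cell cannot be told apart. In most lists the 4 members with the smallest p are named, and further members were added for their role after their values were seen.

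**Figure D3:**
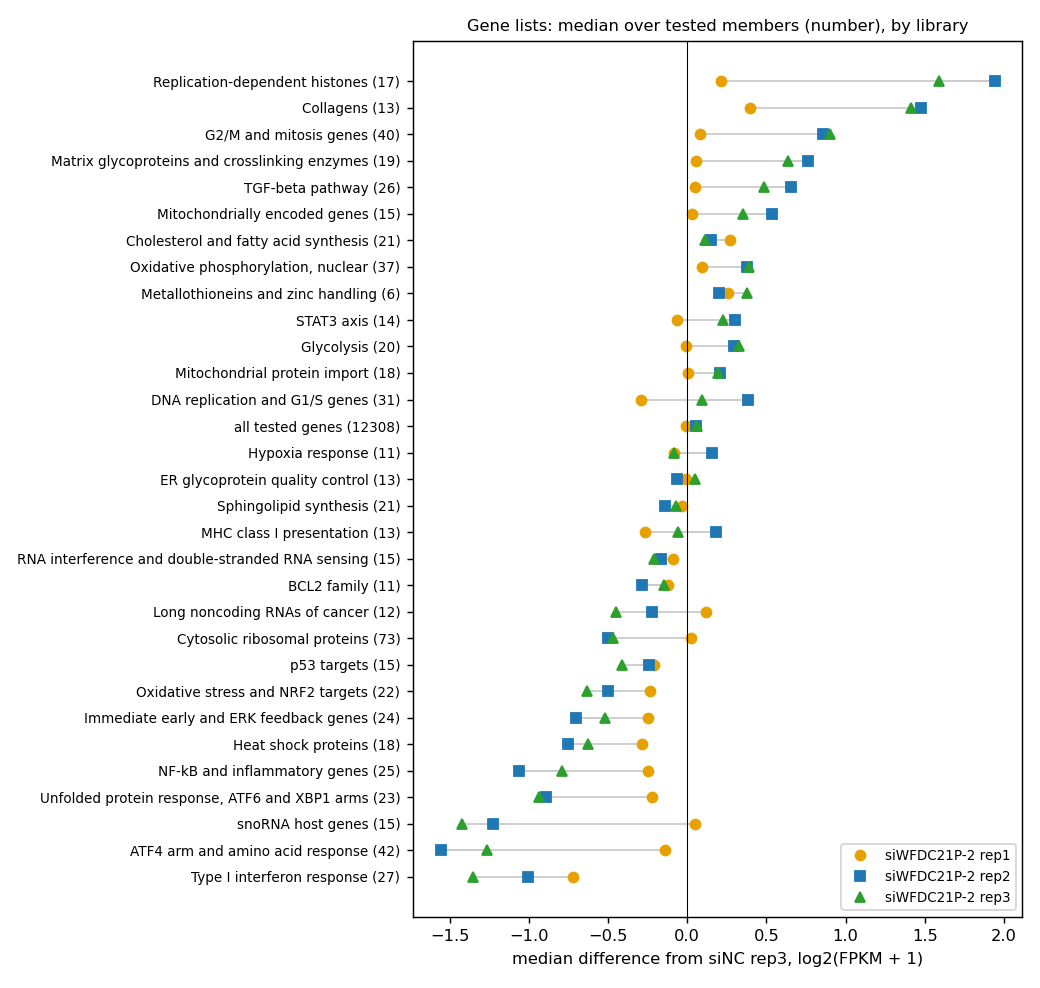
Median difference from siNC replicate 3 on the log2(FPKM + 1) scale over the tested members of each list (number in brackets), in siWFDC21P-2 replicates 1, 2 and 3. The type I interferon list is low in all 3 libraries, at -0.72, -1.01 and -1.35 in replicates 1, 2 and 3. The collagen list is high in all 3, at 0.40, 1.47 and 1.42. The ATF4, histone and snoRNA host gene lists have replicate 1 at -0.14, 0.21 and 0.05. In all 5 of these lists replicate 1 is closer to 0 than the other libraries.

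The type I interferon list was lower in all 3 libraries, replicate 1 included. Its 27 tested members of 37 had a median of -1.04, with -0.72, -1.01 and -1.35 in replicates 1, 2 and 3. The control was above all 3 knockdown libraries in 24 of them (88.9%, against 24.9% of all tested genes) and below all 3 in 0. Without adjustment, 19 of the 27 had p below 0.05 in limma, all of them lower (against 1.32% of all tested genes). Without replicate 1 limma called 16 lower (against 5.78% of all tested genes). The members share 1 control library, so these counts are not counts of independent tests. Among the sensors and regulators, all 8 tested genes had the control on top. ISG15, a ubiquitin-like modifier, was at 209.59 FPKM in the control and at 85.3, 38.4 and 32.4 FPKM in knockdown replicates 1, 2 and 3 (log2 fold change -2.12 ± 0.59 SE in limma, adjusted p = 0.832). IRF7, a main regulator of interferon genes, was at 9.01 FPKM against 5.14, 2.09 and 1.62 FPKM, the RNA sensor IFIH1 at 4.12 FPKM against 1.99, 1.2 and 0.861 FPKM, and the feedback protease USP18 at 5.01 FPKM against 2.38, 1.99 and 2.3 FPKM.

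Among the effectors, 16 of 19 had the control above the knockdown libraries. IFI6 was at 213 FPKM in the control and at 95.2, 40.6 and 32.5 FPKM in knockdown replicates 1, 2 and 3. IFIT2, a tetratricopeptide repeat protein like IFIT3, was at 4.37 FPKM against 2.02, 1.62 and 1.86 FPKM, and MX1, an antiviral GTPase, at 10.4 FPKM against 3.23, 2.48 and 0.594 FPKM. Replicate 3 was the lowest library for both IFI6 and MX1, and replicate 2 for IFIT2. The exceptions were IFITM3 (177 FPKM against 162, 205 and 205 FPKM), MX2 (1.2 FPKM against 1.17, 1.77 and 1.64 FPKM) and EPSTI1 (1.63 FPKM against 1.17, 2.94 and 1.99 FPKM). In these 3 genes, replicates 2 and 3 were above the control. EIF2AK2, the double-stranded RNA-dependent kinase PKR, was at 17 FPKM against 12.1, 12 and 10.6 FPKM. ADAR, an RNA-editing deaminase, was at 73.1 FPKM against 61.6, 26 and 44.4 FPKM, and its 3 knockdown libraries were spread, with replicate 1 at 84.3% and replicate 2 at 35.6% of the control.

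Interferon-stimulated genes are bound by a complex that contains STAT2 and IRF9 at the interferon-stimulated response element. The letters GAAANNGAA, on either strand and allowing overlapping matches, were searched in the RefSeq promoters (GRCh38.p14, 250 bases before to 50 after the start), which were found for 21 of the 27 tested members. They occur in 19 of these 21 genes and in 9.86% of all 27305 genes with a promoter in the table, counting a gene once if any of its promoters holds them. The stretches below end at or before the start site. OAS3, IFIT3 and ISG15 are shown as the members with the smallest p among those with a match. RIGI, which had a smaller p and was lower in all 3 knockdown libraries, holds no match. IFITM3 and EPSTI1, for which the control was not above all 3 knockdown libraries, hold a match. Capitals mark the matches.
OAS3 chr12:112938291-112938473 (plus strand): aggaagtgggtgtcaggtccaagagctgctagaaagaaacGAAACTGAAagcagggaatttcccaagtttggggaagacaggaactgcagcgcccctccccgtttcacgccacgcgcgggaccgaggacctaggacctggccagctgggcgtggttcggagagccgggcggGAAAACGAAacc
IFIT3 chr10:89332390-89332527 (plus strand): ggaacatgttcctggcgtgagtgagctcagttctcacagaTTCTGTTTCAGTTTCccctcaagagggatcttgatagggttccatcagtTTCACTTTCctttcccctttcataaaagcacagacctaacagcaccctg
ISG15 chr1:1013344-1013444 (plus strand): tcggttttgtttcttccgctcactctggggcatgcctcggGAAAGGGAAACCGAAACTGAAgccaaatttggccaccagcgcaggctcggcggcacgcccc
The first capital lies 143, 99 and 113 bases before the start in OAS3, IFIT3 and ISG15. In ISG15, 3 matches overlap into a single run. A match describes the sequence and shows no binding.

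Inflammatory genes controlled by NF-kB were also mostly lower, with replicate 1 between the control and the rest. Their 25 tested members had a median of -0.64 (-0.25, -1.07 and -0.79 in replicates 1, 2 and 3), and the control was above all 3 knockdown libraries in 19 (76%). The cytokine IL6 was at 14.9 FPKM in the control and at 7.59, 1.94 and 1.86 FPKM in knockdown replicates 1, 2 and 3, and IL1B at 2.87 FPKM against 0.928, 0.0386 and 0.188 FPKM. IL1A was at 3.9 FPKM against 1.92, 0.169 and 0.356 FPKM, and TNFAIP2, a TNF-induced protein, at 3.56 FPKM against 1.85, 0.725 and 1.46 FPKM. Chemokines did not follow 1 direction. CXCL1 was at 338 FPKM against 362, 505 and 577 FPKM, CXCL6 at 17.5 FPKM against 21.5, 36.4 and 29.4 FPKM and the monocyte chemokine CCL2 at 8.53 FPKM against 10.7, 27.1 and 37.4 FPKM, so the control was the lowest library for all 3. The inhibitor NFKBIA, itself a target, was at 29.4 FPKM against 24.6, 22.7 and 24.9 FPKM.

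Heat shock genes included some of the largest differences measured. Over 18 tested members the median was -0.57, with -0.29, -0.76 and -0.63 in replicates 1, 2 and 3, and the control was above all 3 knockdown libraries in 13 (72.2%). The inducible HSP70 and HSP40 genes stood out, with a median of -2.74 over 6 genes. HSPA1A was at 495 FPKM in the control and at 239.65, 22.5 and 25.5 FPKM in knockdown replicates 1, 2 and 3, HSPA1B at 484 FPKM against 231, 16.8 and 15.6 FPKM and their cochaperone DNAJB1 at 294 FPKM against 154, 37.6 and 37.9 FPKM. HSPA1A and HSPA1B are near-identical copies, so the split of reads between them is uncertain. In HSPA1A, HSPA1B and DNAJB1, replicate 1 was at 48.4, 47.8 and 52.3% of the control. The constitutive HSPA8 was at 665 FPKM against 594, 429 and 391 FPKM, and HSPD1, the mitochondrial chaperonin, at 148 FPKM against 154, 141 and 143 FPKM. CHORDC1 and HSPH1, partners of HSP90 and HSP70, had the smallest p of the list, at 14.9 FPKM against 10.5, 6.89 and 7.49 FPKM and 68.7 FPKM against 47.6, 35.1 and 38.5 FPKM. The small heat shock protein HSPB1 was at 197 FPKM against 135, 96.9 and 132 FPKM. The collagen chaperone SERPINH1 had the control lowest, at 163 FPKM against 189, 207 and 201 FPKM.

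HSF1 binds arrays of GAA units, the heat shock element. The letters GAANNTTCNNGAA, on both strands, occur in 8 of the 17 list members with a promoter in the table and in 0.608% of all genes with a promoter there. HSPA1A, HSPA1B and DNAJB1 are not among the members with a match. SERPINH1, which had the control lowest, and HSPD1, which lay close to the control, are among them. The 2 members shown are the gene with the largest fold change of the list and a member with 3 overlapping matches, with the matches in capitals.
HSPA6 chr1:161524426-161524518 (plus strand): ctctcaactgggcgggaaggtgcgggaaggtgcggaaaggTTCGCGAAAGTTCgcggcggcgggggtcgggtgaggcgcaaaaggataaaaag
CHORDC1 chr11:90223050-90223149 (minus strand): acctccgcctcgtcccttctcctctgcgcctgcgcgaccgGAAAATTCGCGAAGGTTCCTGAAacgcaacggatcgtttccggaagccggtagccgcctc
The matches begin 74 bases before the start in HSPA6 and 60 in CHORDC1.

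Genes of the unfolded protein response were mostly lower, with replicate 1 nearer to the control than replicates 2 and 3. The list of the ATF6 and XBP1 arms also counts EIF2AK3, the gene of the sensor PERK. The 23 tested members of the list had a median of -0.70 (-0.22, -0.89 and -0.93 in replicates 1, 2 and 3). The control was above all 3 knockdown libraries in 18 of them (78.3%). HSPA5, the main chaperone of the endoplasmic reticulum, was at 1766 FPKM in the control and at 1379, 354 and 284 FPKM in knockdown replicates 1, 2 and 3. HERPUD1, a component of the degradation machinery, was at 145 FPKM in the control and at 133, 10.1 and 9.29 FPKM in knockdown replicates 1, 2 and 3. Both had replicate 1 nearer to the control than to replicates 2 and 3. The stress sensors EIF2AK3 and ERN1, which encode PERK and IRE1, were at 4.2 FPKM against 2.81, 1.89 and 2.14 FPKM and 2.89 FPKM against 1.96, 1.02 and 1.32 FPKM. EDEM1, a lectin that directs glycoproteins to degradation, was at 30.5 FPKM against 22.1, 9.71 and 13.6 FPKM, and SDF2L1, a chaperone cofactor, at 72 FPKM against 56.1, 35.9 and 41.9 FPKM. CALR, a lectin chaperone, was at 526 FPKM against 595, 605 and 514 FPKM, so it did not share this direction. Without replicate 1, 14 of the 23 were called lower (60.9%, against 5.78% of all tested genes), among them HSPA5 (-2.47 in limma, adjusted p = 0.0198) and HERPUD1 (-3.77 in limma, adjusted p = 0.0125).

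ATF6 binds the endoplasmic reticulum stress element. Its letters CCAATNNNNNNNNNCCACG, on both strands, occur in 6 of 21 list members with a promoter and in 0.0916% of all genes with a promoter. HSPA5 and XBP1 are shown as the members with the smallest p among those with a match, with the match in capitals.
HSPA5 chr9:125241351-125241449 (minus strand): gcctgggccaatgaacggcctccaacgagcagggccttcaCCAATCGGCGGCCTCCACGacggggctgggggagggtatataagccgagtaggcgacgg
XBP1 chr22:28800570-28800661 (minus strand): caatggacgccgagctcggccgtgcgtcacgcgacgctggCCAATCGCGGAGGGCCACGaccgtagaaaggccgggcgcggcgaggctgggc
XBP1, a factor activated by splicing, was at 96.3 FPKM against 82.3, 27.4 and 36.8 FPKM.

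The ATF4 arm, which answers amino acid shortage and other stresses, had 42 tested members with a median of -1.03. The medians were -0.14, -1.56 and -1.26 in replicates 1, 2 and 3, and the control was above all 3 knockdown libraries in 30 (71.4%). Among the 15 regulators it was so in 14, with a median of -1.82. DDIT3, the factor CHOP, was at 53.2 FPKM in the control and at 51.7, 6.89 and 4.73 FPKM in knockdown replicates 1, 2 and 3. TRIB3, a pseudokinase, was at 68.2 FPKM against 71.6, 4.56 and 7.03 FPKM, and ATF4 itself at 310.18 FPKM against 277, 98.7 and 119.90 FPKM. In these 3 genes replicate 1 was at 97.2, 105 and 89.3% of the control. VLDLR, a lipoprotein receptor, was at 6.78 FPKM against 3.75, 0.653 and 0.897 FPKM, and CHAC1, a glutathione-degrading enzyme, at 21.7 FPKM against 12.1, 1.71 and 3.45 FPKM. These had replicate 1 between the control and the others.

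Most biosynthetic enzymes were also lower in replicates 2 and 3. Asparagine synthetase, ASNS, was at 47.6 FPKM in the control and at 47.7, 7.14 and 11.2 FPKM in knockdown replicates 1, 2 and 3, and the serine synthesis enzyme PHGDH at 26 FPKM against 21.9, 3.31 and 4.32 FPKM. PSAT1 of the same pathway already had replicate 1 at 50.3% of the control, and PSPH, the last enzyme of that pathway, was at 12 FPKM against 12, 14.7 and 16 FPKM. ALDH1L2, of mitochondrial folate metabolism, was at 14.3 FPKM against 10.1, 5.45 and 5.36 FPKM. Among 8 amino acid transporters, the control was above all 3 in 6, with the cystine carrier SLC7A11 at 15.8 FPKM against 13, 2.39 and 2.17 FPKM and SLC1A4 at 2.65 FPKM against 1.43, 0.766 and 0.897 FPKM. Of 9 aminoacyl-tRNA synthetases it was above in 3, and replicate 1 was at or above the control for the alanine enzyme AARS1 (162 FPKM against 172, 90.9 and 87.8 FPKM). Without replicate 1, limma called 33 of the 42 members lower (78.6%, against 5.78% of all tested genes).

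ATF4 binds C/EBP-ATF response elements. The letters TGATGNAA, on both strands, occur in 13 of 36 list members with a promoter and in 4.46% of all genes with a promoter. The 2 members shown have the smallest p among those with a match that lies before the start site.
CHAC1 chr15:40953222-40953309 (plus strand): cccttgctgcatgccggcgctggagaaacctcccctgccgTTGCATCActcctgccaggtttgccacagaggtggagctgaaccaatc
SLC1A5 chr19:46784864-46784951 (minus strand): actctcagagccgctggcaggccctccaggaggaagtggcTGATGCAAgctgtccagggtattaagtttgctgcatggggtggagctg
SLC1A5, a glutamine transporter, was at 81.3 FPKM against 67.9, 38.1 and 38 FPKM.

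Oxidative stress genes were mixed. The 22 tested members, mostly targets of NRF2, had a median of -0.41, and the control was above all 3 knockdown libraries in 12 (54.5%). Sulfiredoxin, SRXN1, was at 2.8 FPKM against 1.47, 0.509 and 0.431 FPKM, the ferritin heavy chain FTH1 at 1207 FPKM against 806, 439 and 426 FPKM and the NRF2 partner MAFG at 18.2 FPKM against 12.8, 11 and 11 FPKM. The glutathione synthesis gene GCLC was at 7.93 FPKM against 5.84, 3.94 and 4.36 FPKM. NQO1, a common NRF2 target, was at 354 FPKM against 403, 409 and 390.02 FPKM, so the control was its lowest library.

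Immediate early and ERK feedback genes had 24 tested members and a median of -0.45, with the control above all 3 knockdown libraries in 16 (66.7%). The phosphatase DUSP1 was at 93.5 FPKM in the control and at 45.3, 16 and 22.6 FPKM in knockdown replicates 1, 2 and 3, and DUSP5 at 7.81 FPKM against 4.16, 1.65 and 2.96 FPKM. DUSP6, which acts on ERK, was at 23.2 FPKM against 16.5, 6.41 and 7.3 FPKM. The growth factor response gene EGR1 was at 16.1 FPKM against 7.69, 7.1 and 9.14 FPKM, and the feedback inhibitor SPRY4 at 27.9 FPKM against 20.7, 16.8 and 18.8 FPKM. Of 15 p53 targets, 9 had the control on top. Beside CDKN1A these were led by GADD45A (73.7 FPKM against 39.9, 26.9 and 38 FPKM) and the death receptor TNFRSF10B (41 FPKM against 25.7, 13.1 and 12.3 FPKM), whereas XPC, a DNA repair gene, was at 6.0 FPKM against 8.46, 9.43 and 9.47 FPKM. Among 11 tested BCL2 family genes, the survival gene MCL1 had the smallest p, at 129.71 FPKM against 82.5, 63 and 62.7 FPKM, and the death gene BBC3 was at 5.9 FPKM against 5.95, 0.695 and 0.86 FPKM. BAK1, a pore-forming death protein, was at 12.6 FPKM against 10.9, 3.46 and 4.89 FPKM, and PMAIP1, which encodes NOXA, at 24 FPKM against 16.1, 15.2 and 21.5 FPKM.

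Host genes of small nucleolar RNAs, noncoding transcripts whose introns carry these RNAs, were near the control in replicate 1 and lower in replicates 2 and 3. Their 15 members had medians of 0.05, -1.23 and -1.42 in replicates 1, 2 and 3. GAS5 was at 173 FPKM in the control and at 185, 37.2 and 35 FPKM in knockdown replicates 1, 2 and 3, and SNHG1 at 79.4 FPKM against 85.7, 16.7 and 15.9 FPKM. Replicate 1 was above the control for both, and replicates 2 and 3 were at 21.5 and 20.3% of it for GAS5. SNHG16 was at 22.5 FPKM against 18, 9.04 and 11 FPKM, SNHG15 at 11.3 FPKM against 9.81, 5.03 and 5.98 FPKM and SNHG5 at 96.8 FPKM against 94.5, 29.8 and 27 FPKM. EPB41L4A-AS1 had the smallest p of the list and a graded pattern, at 14.2 FPKM against 8.34, 3.18 and 2.96 FPKM. Cytosolic ribosomal protein genes also had replicate 1 near the control and replicates 2 and 3 below it, with medians of 0.03, -0.50 and -0.47 over 73 members. RPL13 was at 207 FPKM against 189.91, 113 and 128 FPKM, and RPL36 at 172 FPKM against 158, 88 and 109 FPKM. RPS18 was at 803 FPKM against 759, 429 and 436 FPKM, and RPL12 at 381 FPKM against 377, 178 and 170.28 FPKM. Ribosomal protein genes have many processed pseudogenes, which can share their reads.

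**Figure D4:**
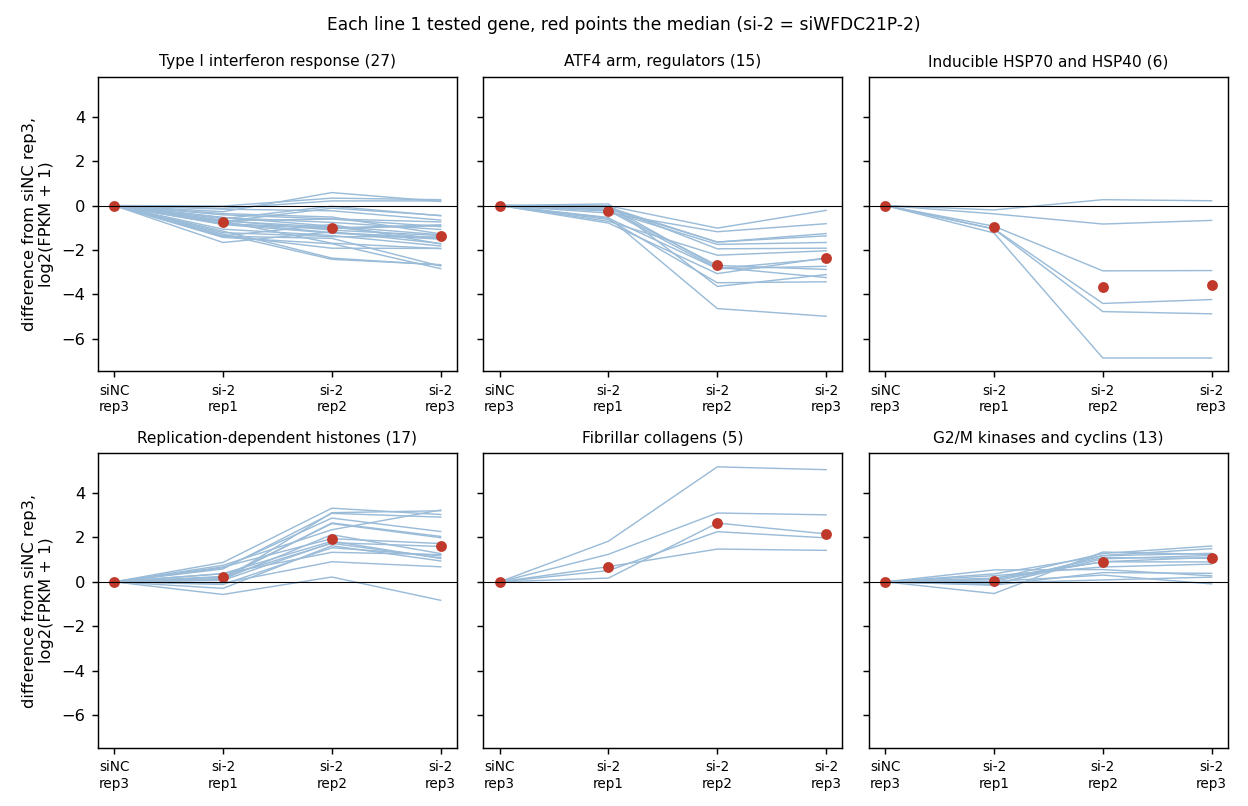
Difference from siNC replicate 3 on the log2(FPKM + 1) scale in each library (horizontal axis) for the tested members of 6 lists or roles. Each line joins the values of 1 gene, and red points are the medians. In replicate 1 the median is -0.72 for interferon genes, -0.99 for inducible HSP70 and HSP40 genes and 0.68 for fibrillar collagens. For ATF4 regulators, histones and G2/M kinases and cyclins it is -0.23, 0.21 and 0.02 there. In each of these last groups replicates 2 and 3 lie further from 0.

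Histone and G2/M genes were mostly higher in replicates 2 and 3. Replication-dependent histone genes, which are transcribed in S phase, had 17 tested of 62 members and a median of 1.17, with 0.21, 1.94 and 1.59 in replicates 1, 2 and 3. The control was below all 3 knockdown libraries in 13 (76.5%, against 28% of all tested genes). Among members that averaged at least 5 FPKM the median was 2.13, and in limma-voom it was 2.16. H2BC12 was at 20.3 FPKM in the control and at 21.6, 183 and 194 FPKM in knockdown replicates 1, 2 and 3, and H2AC6 at 1.77 FPKM against 4.07, 26.4 and 21.5 FPKM. H4C9 was at 4.22 FPKM against 5.73, 12.1 and 11.2 FPKM. H2AC8 was at 0.482 FPKM against 1.36, 4.7 and 3.89 FPKM, and H1-2, a linker histone, at 2.01 FPKM against 4.03, 14.2 and 27.2 FPKM. Histone genes have near-identical copies, and the assignment of reads among them is uncertain.

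The G2/M list had 40 members, all tested, with a median of 0.62 and 0.08, 0.86 and 0.90 in replicates 1, 2 and 3. The control was below all 3 knockdown libraries in 25 (62.5%) and above all 3 in 0. The mitotic checkpoint kinase BUB1 was at 8.54 FPKM in the control and at 11.2, 20.5 and 22.2 FPKM in knockdown replicates 1, 2 and 3. The centromeric histone CENPA was at 5.26 FPKM against 6.81, 17.5 and 19.1 FPKM, and NEK2, a centrosomal kinase, at 11.1 FPKM against 13.6, 18.2 and 19.9 FPKM. KIF20A, a kinesin of cytokinesis, was at 14.3 FPKM against 15.4, 56.4 and 59 FPKM, and the proliferation marker MKI67 at 6.01 FPKM against 6.46, 20.3 and 18.1 FPKM. CEP55, which acts in abscission, was at 37.7 FPKM against 45.5, 66.8 and 71.8 FPKM. In all 6 of these genes replicate 1 lay between the control and replicates 2 and 3. Genes of DNA replication shared this only in part, with a median of 0.05 over 31 members. Their medians were -0.29, 0.38 and 0.09 in replicates 1, 2 and 3. The synthesis and regulator genes had -0.25, 0.57 and 0.37, and the origin licensing and helicase genes -0.30, 0.09 and -0.08. The licensing factors CDC6 and CDT1 were at 16.5 FPKM against 11.6, 8.98 and 7.42 FPKM and 32.3 FPKM against 25.9, 15.1 and 12.8 FPKM, and the cyclin CCNE2 was at 5.46 FPKM against 3.63, 3.56 and 3.22 FPKM. The thymidylate synthase TYMS was at 3.95 FPKM against 4.93, 7.69 and 7.49 FPKM, and RRM2, a subunit of ribonucleotide reductase, was at 26.9 FPKM against 25.4, 78.1 and 57 FPKM.

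Collagens and other matrix genes were higher as well. The 13 tested collagens had a median of 1.07 (0.40, 1.47 and 1.42 in replicates 1, 2 and 3), and the control was below all 3 knockdown libraries in 9 (69.2%). All 5 fibrillar collagens were among them. COL5A1 was at 5.71 FPKM in the control and at 14.9, 56.3 and 53.2 FPKM in knockdown replicates 1, 2 and 3, and COL5A2 at 62.4 FPKM against 101, 175 and 168 FPKM. COL1A1 was at 4.24 FPKM against 4.89, 31.7 and 22.3 FPKM, so its replicate 1 was close to the control, unlike that of COL3A1. COL6A1, of beaded filaments, was at 56.4 FPKM against 89.1, 125 and 123 FPKM, and COL4A1, of basement membranes, at 7.0 FPKM against 17.3, 10.2 and 7.85 FPKM, where replicate 1 was the highest library. The direction of COL5A2 turned in the fit on all 9 libraries with a replicate block, where its log2 fold change was -0.40.

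Of 19 tested matrix glycoproteins and crosslinking enzymes, 12 had the control lowest (63.2%), and the median was 0.57. Thrombospondin, THBS1, was at 9.33 FPKM against 14.4, 37.6 and 37.2 FPKM, and periostin, POSTN, at 14.8 FPKM against 21.5, 99.8 and 89.7 FPKM. Fibrillin, FBN1, was at 25.3 FPKM against 35.9, 52.8 and 39.5 FPKM, and fibronectin, FN1, at 4.56 FPKM against 5.7, 7.29 and 9.13 FPKM. The lysyl oxidase LOXL2 was at 183 FPKM against 83.1, 152 and 164 FPKM, with replicate 1 the lowest library. FBN1 had a log2 fold change of -0.14 in the fit on all 9 libraries with a replicate block.

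The TGF-beta pathway had 26 tested members with a median of 0.45. Among the ligands, TGFB2 was at 0.941 FPKM against 0.915, 4.65 and 4.63 FPKM and BMP4 at 7.76 FPKM against 4.94, 39.96 and 46.4 FPKM. The coreceptor TGFBR3 was at 1.97 FPKM in the control and at 4.45, 8.96 and 7.55 FPKM in knockdown replicates 1, 2 and 3 (log2 fold change 1.38 ± 0.39 SE in limma, adjusted p = 0.832), and the receptor TGFBR1 at 7.14 FPKM against 11.1, 14 and 9.79 FPKM. TGFBR1 had a log2 fold change of -0.93 in the fit with all 9 libraries and a replicate block. Among the targets, the smooth muscle actin ACTA2 was at 56.1 FPKM against 91.7, 111 and 167 FPKM and the matricellular gene CCN2 at 54.3 FPKM against 77.9, 159 and 245 FPKM. ACTA2 overlaps FAS on the other strand. The inhibitory SMAD7 was at 13.7 FPKM against 10.8, 10.2 and 10.8 FPKM.

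STAT3, the partner of lnc-DC in dendritic cells, was at 35 FPKM in the control and at 53.3, 49.8 and 47.3 FPKM in knockdown replicates 1, 2 and 3. The control was its lowest library, with a log2 fold change of 0.50 ± 0.23 (SE, limma, adjusted p = 0.832). Over the 14 tested genes of the STAT3 axis the median was 0.22. IL6R, a receptor subunit, was at 0.694 FPKM against 1.65, 1.85 and 1.33 FPKM, BCL3 at 9.14 FPKM against 11, 15.2 and 13.7 FPKM and the target kinase PIM1 at 46.9 FPKM against 37.7, 11.2 and 9.6 FPKM. SOCS3, its feedback inhibitor, was at 2.83 FPKM against 2.4, 5.44 and 5.13 FPKM. The axis thus held genes on both sides of the control, and its median was -0.049 in the fit on all 9 libraries with a replicate block.

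Several of the genes named first belong to lists whose medians lay near 0. GANAB belongs to the quality control of glycoproteins, whose 13 members had a median of -0.01. Its partner subunit PRKCSH was at 100.01 FPKM against 105, 106 and 113 FPKM, and MOGS, the glucosidase that acts before it, at 19.1 FPKM against 17.9, 18.2 and 21 FPKM. The lectins ERLEC1 and LMAN1 were at 22.6 FPKM against 16.4, 17.2 and 18.4 FPKM and 55.5 FPKM against 55.1, 42.4 and 36.2 FPKM, and the mannosidase-like EDEM3 at 20.1 FPKM against 13.9, 18.6 and 17.4 FPKM. UGCG belongs to sphingolipid synthesis, where 21 tested members had a median of -0.04. The sphingosine kinase SPHK1 was at 1.5 FPKM against 0.95, 0.812 and 0.949 FPKM, the lyase SGPL1 at 10.4 FPKM against 10.2, 6.08 and 4.63 FPKM and the lactosylceramide synthase B4GALT6 at 3.34 FPKM against 2.58, 2.06 and 2.56 FPKM. The ceramide synthase CERS2 was at 29.3 FPKM against 27.5, 31.3 and 30.1 FPKM, and B4GALT5, which like B4GALT6 acts on the product of UGCG, at 18.3 FPKM against 20.4, 22.5 and 26.4 FPKM.

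TOMM22 was among 18 tested genes of mitochondrial import with a median of 0.07. Its neighbour in the complex, TOMM20, was at 132 FPKM against 145, 74.6 and 60.7 FPKM, below the control in replicates 2 and 3. SAMM50, of the outer membrane sorting machinery, was at 5.38 FPKM against 6.66, 8.09 and 7.53 FPKM. The small intermembrane chaperones TIMM13 and TIMM9 were at 15.3 FPKM against 17.3, 28 and 36.6 FPKM and 24.1 FPKM against 22, 14.1 and 14.5 FPKM, so these relatives lay on opposite sides of the control. MT1E was 1 of 3 tested metallothioneins, and MT2A was at 193 FPKM against 199.56, 231 and 316 FPKM. These copies are close in sequence, which makes the split of their reads uncertain. The zinc importer SLC39A10 was at 11.2 FPKM against 8.0, 8.04 and 9.58 FPKM. The zinc exporter SLC30A1 was at 7.23 FPKM against 11.3, 10.1 and 9.1 FPKM. It had a log2 fold change of -0.013 in the fit on all 9 libraries with a replicate block.

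Metabolic lists lay closer to the control. Glycolysis had 20 tested genes with a median of 0.20. The enzymes PFKL, PGAM1 and PKM were at 8.5 FPKM against 12.3, 16.7 and 17.8 FPKM, 90.1 FPKM against 109.83, 215 and 226 FPKM and 109 FPKM against 143, 283 and 269.74 FPKM, and ALDOA at 151 FPKM against 174, 217 and 213 FPKM. Nuclear genes of oxidative phosphorylation had a median of 0.29 over 37 genes, with the control below all 3 knockdown libraries in 18 (48.6%) and above all 3 in 0. The ATP synthase subunits ATP5MG and ATP5PB were at 6.31 FPKM against 9.26, 11.2 and 10.6 FPKM and 45.4 FPKM against 61, 76.9 and 69.1 FPKM. SDHB of complex II was at 33.6 FPKM against 41.7, 46.9 and 51.1 FPKM. All 3 had the control lowest.

 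Cholesterol and fatty acid synthesis had replicate 1 as the most distant library, with medians of 0.27, 0.15 and 0.11. The desaturase SCD was at 516 FPKM against 1166, 611 and 561 FPKM. The sterol enzyme LSS was at 13.1 FPKM against 17.6, 22.5 and 21.4 FPKM, and ACACA, which commits carbon to fatty acids, at 13.4 FPKM against 18.8, 24.2 and 21.2 FPKM. The sterol regulators INSIG1 and SREBF1 were at 21.9 FPKM against 31.3, 30.2 and 29 FPKM and 18.4 FPKM against 32, 23.6 and 25.8 FPKM. The 15 genes of the mitochondrial genome had a median of 0.32. The control was below all 3 knockdown libraries in 8 of them and above all 3 in 3. Of the 2 ribosomal RNA genes, 1 had the control lowest and 1 had it highest. The ribosomal RNA gene MT-RNR1 was at 799 FPKM against 972, 1956 and 1553 FPKM, MT-ATP6 at 2077 FPKM against 2313, 3814 and 3305 FPKM and MT-ND2 at 1639 FPKM against 1720.2, 3233 and 2751 FPKM. MT-CYB was at 3086 FPKM against 3307, 4471 and 4561 FPKM, and replicate 1 was the nearest to the control in all 4.

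Hypoxia targets had a median of -0.0048 over 11 genes. The mitophagy gene BNIP3 was at 5.85 FPKM against 4.57, 3.65 and 4.13 FPKM, its relative BNIP3L at 68.8 FPKM against 72.9, 27 and 27 FPKM and the growth factor VEGFA at 18.1 FPKM against 17, 8.23 and 7.2 FPKM. The hypoxia factor EPAS1 was at 84.3 FPKM against 126, 117 and 96.5 FPKM, and its log2 fold change was -0.043 in the fit on all 9 libraries with a replicate block. MHC class I presentation had a median of -0.10 over 13 genes. In that list PSMB8, an immunoproteasome subunit, was at 17.5 FPKM against 17.1, 30.3 and 27.9 FPKM and the heavy chain HLA-C at 73.6 FPKM against 60.8, 59.8 and 60.8 FPKM. Also in that list, the peptide transporter TAP1 was at 21.1 FPKM against 6.63, 13.7 and 15.5 FPKM, with replicate 1 the lowest library. HLA-B, at 35.2 FPKM against 27.3, 29.5 and 28.5 FPKM, had a log2 fold change of 0.30 in the fit on all 9 libraries with a replicate block.

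The RNA interference machinery was measured because the treatment uses it. Its list, with the sensors of double-stranded RNA, had a median of -0.10 over 15 tested genes, and of 0.025 in the fit on all 9 libraries with a replicate block. AGO2, the slicing Argonaute, was at 24.4 FPKM against 20.8, 11.4 and 12.2 FPKM, AGO3 at 2.42 FPKM against 1.99, 1.00 and 1.19 FPKM and DICER1 at 16.7 FPKM against 17.1, 7.14 and 11.2 FPKM. Replicate 1 was the knockdown library nearest to the control for these 3. Of 12 tested long noncoding RNAs known from cancer, 3 had the control on top and 3 had it lowest. NORAD was at 105 FPKM against 93.4, 48.9 and 27 FPKM, and HOTAIR at 1.23 FPKM against 1.5, 6.43 and 4.56 FPKM. DANCR was at 9.53 FPKM against 11.1, 18.5 and 12.6 FPKM, and PVT1 at 4.32 FPKM against 4.05, 2.07 and 2.44 FPKM.

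Markers were examined for the identity of the cells. The mesenchymal markers of the line were present in all 4 libraries, with vimentin, VIM, at 310.38 FPKM in the control and at 309, 162 and 178 FPKM in knockdown replicates 1, 2 and 3, and CDH2, N-cadherin, at 17.7 FPKM against 15.9, 14.7 and 18.1 FPKM. The receptor kinase AXL was at 76 FPKM against 45.7, 16.9 and 36 FPKM. The sum of the 8 mesenchymal markers was 669 FPKM in the control and 666, 632 and 651 FPKM in replicates 1 to 3, and the control was below all 3 knockdown libraries in 4 of them and above all 3 in 3, with a median of 0.05. The hormone receptor genes ESR1 and PGR were at 0 in the control and replicates 1 and 2, and 7 of 10 luminal and epithelial markers did not reach the mean of 1 FPKM. The sum of the 10 was 15.5 FPKM in the control and 17.8, 39.1 and 38.5 FPKM in replicates 1 to 3. Its largest part was GATA3, a luminal transcription factor, at 7.98 FPKM against 11.3, 29.96 and 28.5 FPKM. Of the leukocyte markers only the monocyte gene CD14 was tested, at 1.11 FPKM against 1.98, 6.97 and 8.7 FPKM, while PTPRC was at 0.103 FPKM against 0.0481, 0.128 and 0.16 FPKM and LYZ at 0 FPKM against 0, 0.0339 and 0 FPKM. The 6 leukocyte markers summed to 1.4 FPKM in the control and 2.25, 7.4 and 9.04 FPKM in replicates 1 to 3. No endothelial or erythroid marker reached the filter, and the 4 endothelial markers summed to 0 FPKM in the control and 0, 0.0435 and 0.0093 FPKM in replicates 1 to 3. Fibroblast markers share 3 collagens and POSTN with the lists above. They had the control below all 3 knockdown libraries in 6 of 6 tested genes, with a median of 1.62. The 10 markers summed to 126 FPKM in the control and 181, 742 and 673 FPKM in replicates 1 to 3. Among them LUM was at 0.388 FPKM against 0.497, 3.75 and 3.89 FPKM and THY1 at 43.6 FPKM against 49.5, 90.3 and 109.99 FPKM, while DCN was at 0 FPKM against 0.00448, 0.00465 and 0.0181 FPKM and PDGFRB at 0.0344 FPKM against 0.0322, 0.0921 and 0.0815 FPKM. These values move with the collagen and matrix lists, and their part in those results was not tested.

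The shared table lists 2468 genes that the other 5 files do not. Most are close to undetected, since 1788 of them (72.4%) have at most 3 reads over the 4 libraries, and they hold 0.252 to 0.284% of all FPKM. The tested ones number 104, of which 57 are protein coding. None was called, 5 had an unadjusted limma p below 0.05, the control was below all 3 knockdown libraries in 31 and above all 3 in 22. Without replicate 1, limma called 24 of them, 15 higher (14.4%, against 9.26% of all tested genes) and 9 lower (8.65%, against 5.78%).

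Secreted factors were among the most abundant of these genes. The fibroblast growth factor FGF5 was at 21.4 FPKM in the control and at 23.7, 18.5 and 23.8 FPKM in knockdown replicates 1, 2 and 3, and the Wnt agonist RSPO2 at 8.01 FPKM against 11.7, 35.9 and 30.7 FPKM. MMP1, a collagenase, was at 26.3 FPKM against 30.8, 9.68 and 11.9 FPKM, and the cadherin CDH11 at 10.7 FPKM against 12.1, 29.7 and 22.6 FPKM. RSPO2 and CDH11 had the control lowest, with replicate 1 next to it in both, whereas for FGF5 the control lay among the knockdown libraries. SOX3, a developmental factor, was at 2.19 FPKM against 1.35, 11.7 and 15.7 FPKM.

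By p, the higher genes of this set were led by ST8SIA2, a polysialyltransferase, at 0.738 FPKM in the control and at 1.51, 3.19 and 3.94 FPKM in knockdown replicates 1, 2 and 3. PBDC1 was at 3.93 FPKM against 5.84, 11 and 13.1 FPKM, BRINP1 at 0.157 FPKM against 0.471, 7.38 and 5.92 FPKM and PDZRN3, a ubiquitin ligase, at 1.2 FPKM against 1.58, 9.12 and 7.6 FPKM. The log2 fold change was 1.10 ± 0.44 (SE, limma, adjusted p = 0.832) for ST8SIA2 and 1.45 ± 0.65 (SE, limma, adjusted p = 0.832) for RSPO2. The lower genes were led by short RNA genes with few reads. A Y RNA copy (ENSG00000202279) had 8 reads in the control and 3, 1 and 3 in replicates 1 to 3. RNA5SP174 had 7 reads against 3, 3 and 4, RNU7-71P had 3 reads against 1, 1 and 0 and RNU6-247P had 6 reads against 3, 0 and 2. ARMCX1, an armadillo repeat protein of mitochondria, was the protein-coding gene among the lower 5, at 15.1 FPKM in the control and at 10.3, 9.38 and 8.21 FPKM in knockdown replicates 1, 2 and 3 (log2 fold change -0.65 ± 0.24 SE in limma, adjusted p = 0.832).

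**Figure D5:**
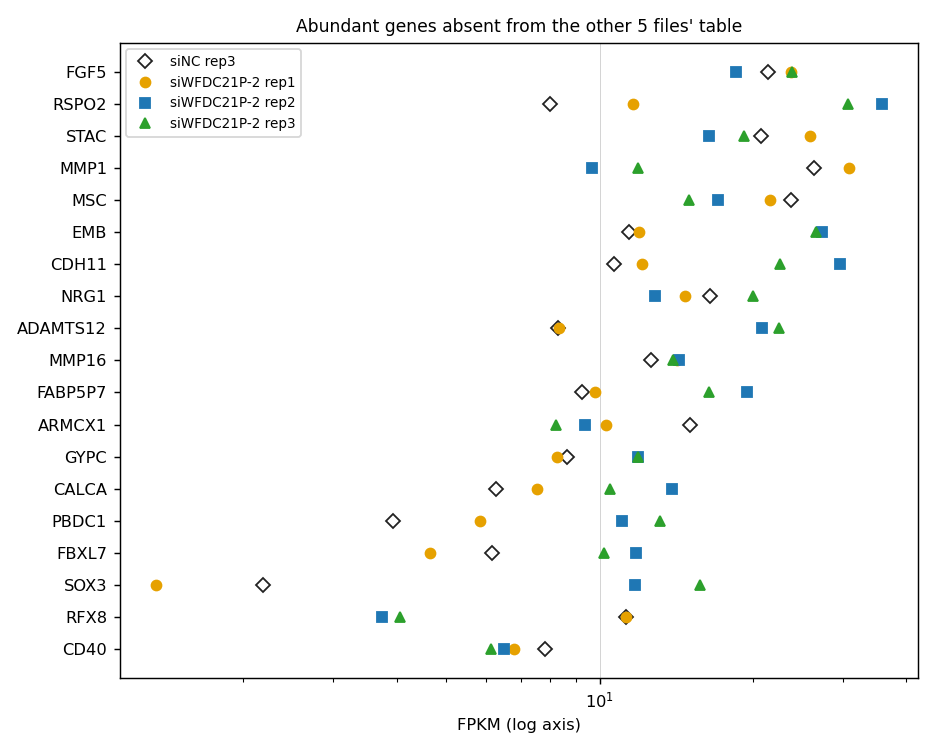
FPKM (log axis) of 19 of the 20 most abundant genes that only the table of these 4 libraries lists, in siNC replicate 3 (open diamonds) and siWFDC21P-2 replicates 1 to 3 (filled symbols). Replicate 1 lies beside the control for CDH11, ADAMTS12 and RFX8, while replicates 2 and 3 lie together away from it.

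Short RNA genes were kept out of the named genes above because 1 read is worth much FPKM in them. The smallest p of the whole table belonged to MIR1244-3, with 0 reads against 4, 6 and 6 in replicates 1, 2 and 3. MIR6753 had 0 reads against 7, 6 and 7. For both genes the control was at 0 reads, so no fold is given. With no filter on low values, limma called 319 genes, all lower, of which 316 were at 0 in all 3 knockdown libraries, with a median of 1 read in the control.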

How the data were processed

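RNA from 4 libraries was compared: siNC replicate 3 and siWFDC21P-2 replicates 1 to 3. The authors deposited FPKM per gene, a count normalised by length and depth. The submitters' processing notes list hg38 and the tools HTSeq 0.6.0, Bowtie2 2.2.3 and HISAT2 2.1.0, with no roles. Whether counting used the strand, and how RNA was selected, is not given in the sources used here.

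Genes that averaged 1 FPKM or more across the 4 libraries were tested with limma 3.58.1 in R 4.3.3 on log2(FPKM + 1), with a trended prior and Benjamini-Hochberg adjustment at 0.05. A fold change on this scale understates the change of low genes. The fit on all 4 libraries had 2 residual and 2.92 prior degrees of freedom. The single control was assumed to vary like the knockdown libraries. Symbols were found for 23144 of 29104 genes, and coordinates come from GENCODE 29.

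FPKM multiplied by exon length and depth fell on whole reads within 0.02 in 93.7 to 93.9% of low values. Reads were recovered in this way, or from the common step of a gene's values, for 28742 genes (98.8%). They were used for limma-voom.

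Named by rule were 10 higher and 10 lower genes ranked by unadjusted p, because none was called, with short RNAs and symbols ending in P and digits left out (meant for pseudogenes, this also leaves out 857 protein-coding genes), then the 4 members of each list with the smallest p, and the 5 higher and 5 lower genes listed only here. Members and lists were chosen with earlier results of these data known. Alternatives covered the pseudocount, filter, scaling, variance model, libraries, replicate block and leaving out each knockdown library. Some genes that this rule names are not reported here.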

Additional observations from a re-analysis of the deposited data

How the results depend on the processing

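The count of called genes was 0 in both directions with pseudocounts of 0.1 and 0.5, a mean of at least 5 FPKM, size factors, quantile normalization, robust variances, voom and all 9 libraries with the gene table as a term. It ranged from 0 to 1140 for higher and from 0 to 711 for lower genes over the fits that left out 1 knockdown library, and both upper values belong to the fit without replicate 1. Among genes listed only here these ranges were 0 to 15 and 0 to 9. Without a filter on low values limma called 319 lower genes, 117 of them listed only here, and 0 higher.

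Counts without a test followed the filter and the pseudocount. Genes over 2-fold from the control numbered 370, 2070 and 1903 in replicates 1, 2 and 3 with a pseudocount of 0.1, and 54, 781 and 709 with a mean of at least 5 FPKM. At that filter the control lay below all 3 knockdown libraries in 2142 genes and above in 1661.

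The 4 libraries hold 1 shared replicate number, so a replicate block could be fitted only on all 9 libraries, where it called 0 genes, with 495 at an unadjusted p below 0.05. In that fit the log2 fold change reversed to -0.013 for SLC30A1, -0.40 for COL5A2, -0.14 for FBN1, -0.93 for TGFBR1, -0.043 for EPAS1 and 0.30 for HLA-B, and the cause was not tested. The fit with the block also draws on libraries of other expression backgrounds, so it is not a check on these 4 libraries alone. No other named gene reversed under the alternatives run. Without replicate 1, 119 of 168 named genes passed the adjusted threshold, against 15% of all tested genes, but they were named from the same libraries. The log2 fold change of WFDC21P ranged from -1.19 to -0.74 over all alternatives.

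Of 31 list medians, 6 moved by more than the SD of the 3 libraries' medians under the replicate block, 4 without replicate 1, and 1 each under voom, the filter at 5 FPKM and without replicate 3. Under the block they went from 0.27 to 0.38 for metallothioneins and zinc handling, from 0.22 to -0.049 for the STAT3 axis, from -0.0098 to -0.23 for glycoprotein quality control, from -0.099 to 0.025 for RNA interference and double-stranded RNA sensing, from -0.35 to -0.59 for p53 targets and from -0.0048 to -0.23 for the hypoxia response. Without replicate 1 they went from 0.29 to 0.11 for cholesterol and fatty acid synthesis, from 0.072 to 0.21 for mitochondrial import, from -0.12 to -0.25 for the BCL2 family and from -0.35 to -0.24 for p53 targets. The histone median of 1.17 was 2.13 with the filter at 5 FPKM and 2.16 under voom, and that of glycoprotein quality control was -0.079 without replicate 3. Smaller moves across 0 occurred for G1/S genes (-0.0011 with quantile normalization, -0.085 without replicate 2), for MHC class I presentation (0.065 without replicate 1), for glycoprotein quality control (0.044 with quantile normalization, 0.031 without replicate 1, 0.019 without replicate 2) and for the hypoxia response (0.034 without replicate 1, 0.067 without replicate 3). The cause was not tested.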
